A study of Arabidopsis thaliana with 6 samples.

Results

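The xyloglucan endotransglucosylase/hydrolase (XTH) family of Arabidopsis thaliana was examined in dark-held seeds of hda15-1, which carries a mutation in HDA15, a gene for a histone deacetylase, and of wild type. Its 33 members, XTH1 to XTH33, are the whole named family, taken by locus identifier, and all 33 were among the 32884 rows of the deposited tables. There were 3 libraries of hda15-1 and 3 of wild type. Both genotypes were in the Col-0 accession, and the labels say no more of the hda15-1 allele. Per the labels' protocols, all seeds were dried for about a month after harvest, soaked in water for 1 h, given 5 min of far-red light (3.82 µmol per square metre per second), then held in the dark at 22 °C for 12 h. A far-red pulse turns phytochrome to its inactive form, and the series title places HDA15 with the transcription factor PIF1 in a repressor module of dark germination. The comparison asks which XTH transcripts such seeds hold and which differ when HDA15 is lacking.

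Xyloglucan is the main hemicellulose of the primary wall in Arabidopsis and binds to cellulose. An XTH enzyme cuts a xyloglucan chain and either joins the cut end to another chain, which lets walls yield and be rebuilt as cells grow, or releases it by hydrolysis. In a germinating seed the walls of the embryo axis extend and those of the endosperm weaken before the radicle emerges. The founding nomenclature sorts the family into group 1 (XTH1 to XTH11), group 2 (XTH12 to XTH26) and group 3 (XTH27 to XTH33).

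Levels are given in FPKM, that is, fragments per kilobase of a transcript, relative to all mapped, a unit in which genes of different length can be set side by side. HDA15 was low in every library labelled hda15-1, at 0.338, 0.651 and 0.417 FPKM, against 16.1, 13.0 and 14.8 FPKM in wild type. Read totals are unknown. By the steps between low values, the depth of the libraries relative to wild type 1 lay between 0.9225 and 1.24, and a single read gave about 0.0853 to 0.119 FPKM where the transcript is 1 kb long. Across genes, log2 levels correlated at r = 0.975 to 0.987 within hda15-1, 0.983 to 0.992 within wild type and 0.979 to 0.989 between the genotypes. Genes are not independent replicates. The 5 seed reserve and late seed markers (SESA4, CRA1, OLEO1, PER1 and EM6) summed to between 33020 and 54520 FPKM in hda15-1 and between 30200 and 52440 FPKM in wild type, and all 5 were abundant in every library. Of the seed coat markers, BAN was listed at 0 in all 6 libraries and TT10 in 5. The pollen marker VGD1 was listed at 0 in all 6. The 3 green leaf markers RBCS1A, LHCB1.3 and LHCB2.1 summed to 446 to 619.5 FPKM in hda15-1 and 352 to 457 FPKM in wild type. Nearly all of this sum was RBCS1A, which averaged 536 FPKM in hda15-1 and 402 FPKM in wild type. LHCB1.3 was low, with means of 4.59 FPKM in hda15-1 and 3.39 FPKM in wild type. LHCB2.1 was lower still, with means of 0.343 FPKM in hda15-1 and 0.242 FPKM in wild type.

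Of the 33 members, 22 had a value above 0 in at least 1 library and 13 in all 6, while 11 were listed at 0 throughout. The members listed at 0 in all 6 libraries were XTH1, XTH2, XTH10, XTH12, XTH13, XTH14, XTH17, XTH20, XTH21, XTH23 and XTH32. They include XTH17 and XTH20, which are known from roots, and XTH21, known for its part in root growth. A value of 0 in such tables can be a failed estimate, so these members are only said to be listed at 0. No member was listed at 0 in one library and above 5 FPKM in another. A further 9 members, XTH3, XTH6, XTH7, XTH8, XTH18, XTH24, XTH26, XTH29 and XTH33, had only traces. Their values above 0 lay between 0.0645 and 0.335 FPKM and made up 10 of 27 values in hda15-1 and 14 of 27 values in wild type. Most of these rest on a few reads at most.

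The 10 members that averaged 1 FPKM or more over all libraries could be tested, which is 3 of 11 in group 1, 4 of 15 in group 2 and 3 of 7 in group 3. A coding stretch of 30 bases around the catalytic site of each of these 10 is shown, since the site is what the family shares and since XTH11 differs in it. The stretches were read from the TAIR10.1 genome, 5′ to 3′ on the coding strand, and capitals mark the codons at the places of the 2 catalytic glutamates.
XTH25 (chr5:23305797-23305826, minus strand): tgggacGAAatcgatttcGAGtttcttggt
XTH11 (chr3:18007737-18007766, plus strand): catgatGAGctctgtttcCAGatcttggga
XTH15 (chr4:8137782-8137811, minus strand): catgacGAGatagactttGAGtttctaggt
XTH28 (chr1:5067931-5067960, minus strand): catgacGAGattgattttGAGtttttgggg
XTH19 (chr4:14829561-14829590, minus strand): tgggatGAGattgatttcGAGtttttgggg
XTH22 (chr5:23307839-23307868, minus strand): tgggacGAGatagatttcGAGtttttaggg
XTH27 (chr2:385888-385917, plus strand): catgatGAGatagattttGAGtttcttggt
XTH31 (chr3:16447882-16447911, minus strand): cacgatGAGgtcgatatcGAGtttctaggg
XTH5 (chr5:4475714-4475743, minus strand): catgatGAGatagactttGAGtttctaggg
XTH9 (chr4:1416535-1416564, plus strand): cacaacGAAttcgattttGAGttcttaggg
All 33 members had 1 such stretch, no 2 of them the same in bases. The stretches were found by a pattern on the translated sequence. It required glutamate at the first marked place, allowed glutamate or glutamine at the second, and left the place just before the second free. The first capital codon was therefore GAA or GAG, a glutamate codon, in all 33. The second was GAA or GAG in 32 and CAG, a glutamine codon, in XTH11. The codon just before it was ttt or ttc, for phenylalanine, in 28 members and ata or atc, for isoleucine, in XTH29 to XTH33. XTH31 is thus the only tested member of the isoleucine kind.

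**Figure D1:**
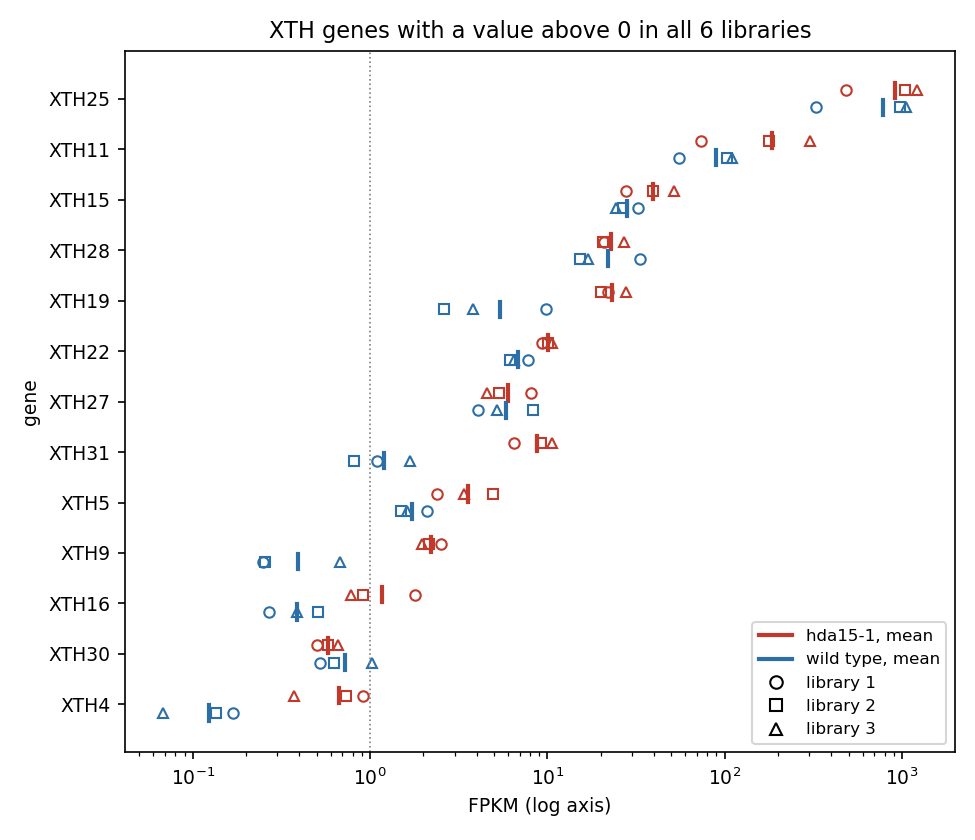
FPKM (log axis) of the 13 XTH genes with a value above 0 in all 6 libraries, with a symbol for each library and a bar for the mean of each genotype (hda15-1 red and above, wild type blue and below). XTH25 and XTH11 lie far above the rest, and the hda15-1 points of XTH31, XTH19, XTH9, XTH5, XTH22, XTH16 and XTH4 lie to the right of all their wild-type points; the dotted line marks 1 FPKM.

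XTH25 transcripts made up most of the family's summed level in every library. XTH25 (AT5G57550) stood at 484, 1039 and 1217 FPKM in hda15-1, against 326, 977 and 1048 FPKM in wild type. The genotypes overlapped, and in both the library numbered 1 was the low one. The log2 difference was 0.29 ± 0.52 (SE, limma; 95% interval -0.90 to 1.48), and its adjusted p of 1.000 did not pass. XTH25 took 73.2%, 78.1% and 73.3% of the summed FPKM of all 33 members in hda15-1, against 68.8%, 85.4% and 85.8% in wild type. By level it ranked between 131st and 278th of all genes in hda15-1 libraries and between 110th and 438th in wild-type libraries.

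XTH11 (AT3G48580), the member with a glutamine codon at the catalytic site, had the second highest level of the family in both genotypes. It stood at 74.0, 177 and 304 FPKM in hda15-1, against 55.3, 103 and 110 FPKM in wild type. The genotypes overlapped through hda15-1 1, which lay below 2 of the wild-type libraries. The log2 difference was 0.88 ± 0.50 (SE, limma), with a 95% interval from -0.26 to 2.02 and an adjusted p of 1.000. The ranges of XTH25 and XTH11 did not overlap within either genotype, nor did those of XTH11 and XTH15, the next in order.

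**Figure D2:**
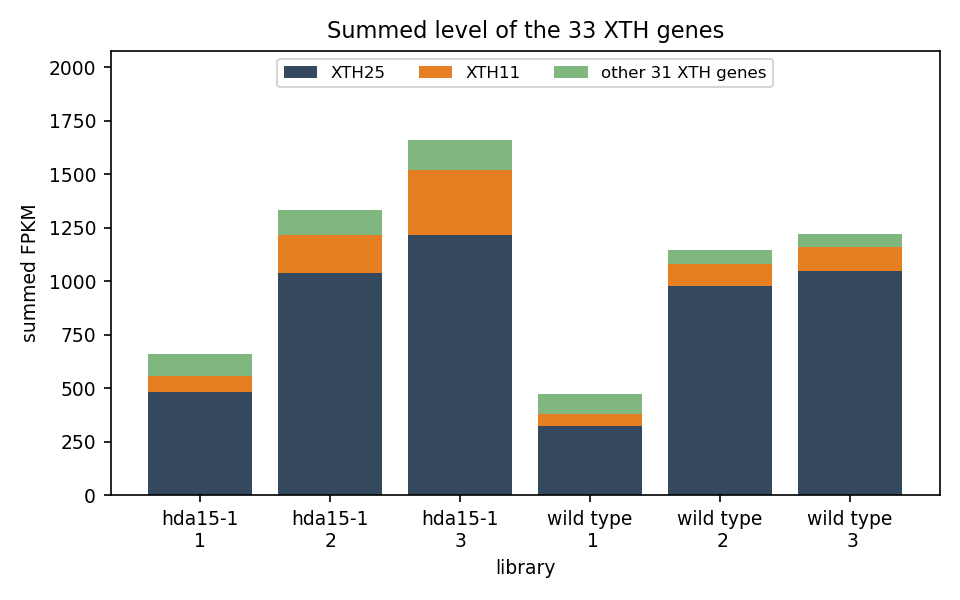
Summed FPKM of the 33 XTH genes in each library, hda15-1 on the left and wild type on the right, split into XTH25, XTH11 and the other 31. The sum is lowest in the libraries numbered 1, at 661 FPKM in hda15-1 and 474 FPKM in wild type. The part left to the other 31 genes is larger in all hda15-1 libraries than in any wild-type library, a separation that rests on XTH19.

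Summed over the family, FPKM came to 661, 1331 and 1661 in hda15-1, against 474, 1144 and 1221 in wild type. These sums overlap and follow XTH25. Without XTH25 and XTH11, the other 31 members summed to 103, 115 and 140 FPKM in hda15-1, against 92.6, 63.9 and 62.9 FPKM in wild type. The 3 hda15-1 sums lay above all wild-type sums, by a narrow margin over wild type 1. XTH19, one of these members, differed by more than this margin between hda15-1 1 (21.9 FPKM) and wild type 1 (9.85 FPKM). Without XTH19 the sums overlap, so the separation is not a trait of the other members as a whole. No like sum was taken over other genes.

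Differences between genotypes were tested with limma on log2(FPKM + 1) over all 15045 genes that averaged 1 FPKM or more, with Benjamini-Hochberg adjustment and a threshold of 0.05. Of the 10 XTH genes tested, 1 was higher in hda15-1 (XTH31), beside 0.199% of all genes tested, and none was lower, beside 0.0199%. At an unadjusted p under 0.05, 5 were higher, beside 3.08% of all genes tested, and 0 were lower, beside 1.20%. The hda15-1 libraries lay above all wild-type libraries in 5 of the 10 (XTH31, XTH19, XTH9, XTH22 and XTH5), where 5.78% of all genes tested did so, and below them in 0, where 3.43% did so. The median log2 difference of the 10 was 0.61, against 0.02 for all genes tested. XTH9 entered the test only through its hda15-1 values, so these counts cover the members that passed the filter and not the family. Whole seeds were sampled, so more RNA per cell and more cells of a type cannot be told apart.

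XTH31 (AT3G44990), a group 3 enzyme that acts mainly as a hydrolase when made as a recombinant protein, was the 1 member that passed the threshold. It lies on chromosome 3 from 16446935 to 16448844 on the minus strand in TAIR10.1, with 4 coding exons. It stood at 6.52, 9.18 and 10.6 FPKM in hda15-1, against 1.10, 0.817 and 1.69 FPKM in wild type. Every hda15-1 library was far above every wild-type library, with means of 8.77 ± 2.07 FPKM in hda15-1 and 1.20 ± 0.444 FPKM in wild type (SD, n = 3 each), a ratio of 7.30. The log2 difference was 2.15 ± 0.23 (SE; 95% interval 1.61 to 2.69), with an adjusted p of 0.0142 in limma, and XTH31 was 16th of all genes in order of p. It lost the call without hda15-1 2 (adjusted p = 0.0949), hda15-1 3 (0.0716), wild type 1 (0.0524) or wild type 2 (0.0887) in limma, while the difference stayed between 2.01 and 2.32. XTH32, the member with the most similar coding sequence at 68.5% identity and the other member of its subgroup, was listed at 0 in all libraries.

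XTH19 (AT4G30290), known from roots, had the second largest difference on the log2(FPKM + 1) scale but did not pass. With a pseudocount of 0.1 the log2 difference was 2.29 for XTH19 and 2.32 for XTH9, and the ratio of means was 4.283 for XTH19 and 5.601 for XTH9, so the order of these 2 turned. XTH19 stood at 21.9, 20.1 and 27.7 FPKM in hda15-1, against 9.85, 2.62 and 3.81 FPKM in wild type. The genotypes did not overlap, but wild type 1 was well above the other wild-type libraries. The log2 difference was 2.07 ± 0.38 (SE; 95% interval 1.20 to 2.93), with an adjusted p of 0.150 in limma. Without wild type 1 it was 2.53 with an adjusted p of 0.0143 in limma. XTH19 shares a run of 68 identical bases with XTH18 and 89.2% of its coding bases, so some reads may have been assigned between them. XTH18 was listed at 0 in all hda15-1 libraries and at up to 0.141 FPKM in wild type.

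XTH9 (AT4G03210), known from stems and the xylem, stood at 2.51, 2.15 and 1.97 FPKM in hda15-1, against 0.250, 0.255 and 0.679 FPKM in wild type. Its genotypes were well apart, at low levels that rest on few reads in wild type. The log2 difference was 1.21 ± 0.21 (SE; 95% interval 0.74 to 1.69), with an adjusted p of 0.116 in limma. With all genes above 0 tested, the adjusted p was 0.0727, still short of the threshold.

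XTH22 (AT5G57560), also called TCH4 for its induction by touch, stood at 9.34, 10.1 and 10.7 FPKM in hda15-1, against 7.83, 6.13 and 6.48 FPKM in wild type. This was a small difference with tight groups that did not overlap, at a log2 difference of 0.50 ± 0.17 (SE; 95% interval 0.12 to 0.89) and an adjusted p of 0.878 in limma. XTH5 (AT5G13870) stood at 2.38, 4.95 and 3.39 FPKM in hda15-1, against 2.11, 1.49 and 1.61 FPKM in wild type. Its lowest hda15-1 library was barely above its highest wild-type library, and both were numbered 1. The log2 difference was 0.71 ± 0.24 (SE), with a 95% interval from 0.15 to 1.26 and an adjusted p of 0.935 in limma.

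XTH15, XTH28 and XTH27 overlapped between the genotypes. XTH15 (AT4G14130), which responds to shade in petioles, stood at 27.9, 39.3 and 51.9 FPKM in hda15-1, against 32.6, 26.9 and 24.5 FPKM in wild type (log2 difference 0.46 ± 0.25, SE). Its last 382 bp overlap AT4G14120 on the other strand, which reached at most 0.206 FPKM. XTH28 (AT1G14720), known for stamen filament growth, stood at 20.8, 20.5 and 27.1 FPKM in hda15-1, against 33.4, 15.3 and 17.05 FPKM in wild type (log2 difference 0.13 ± 0.29, SE). Its highest value was in a wild-type library. XTH27 (AT2G01850), known from leaf veins, stood at 8.12, 5.36 and 4.58 FPKM in hda15-1, against 4.08, 8.30 and 5.21 FPKM in wild type (log2 difference 0.05 ± 0.28, SE), and its direction turned under both other scalings of the libraries. The 95% intervals were -0.11 to 1.03 for XTH15, -0.55 to 0.80 for XTH28 and -0.59 to 0.69 for XTH27, so a difference of 1 in log2(FPKM + 1) lies outside those of XTH28 and XTH27. None of these 3 passed, each with an adjusted p of 1.000 in limma.

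**Figure D3:**
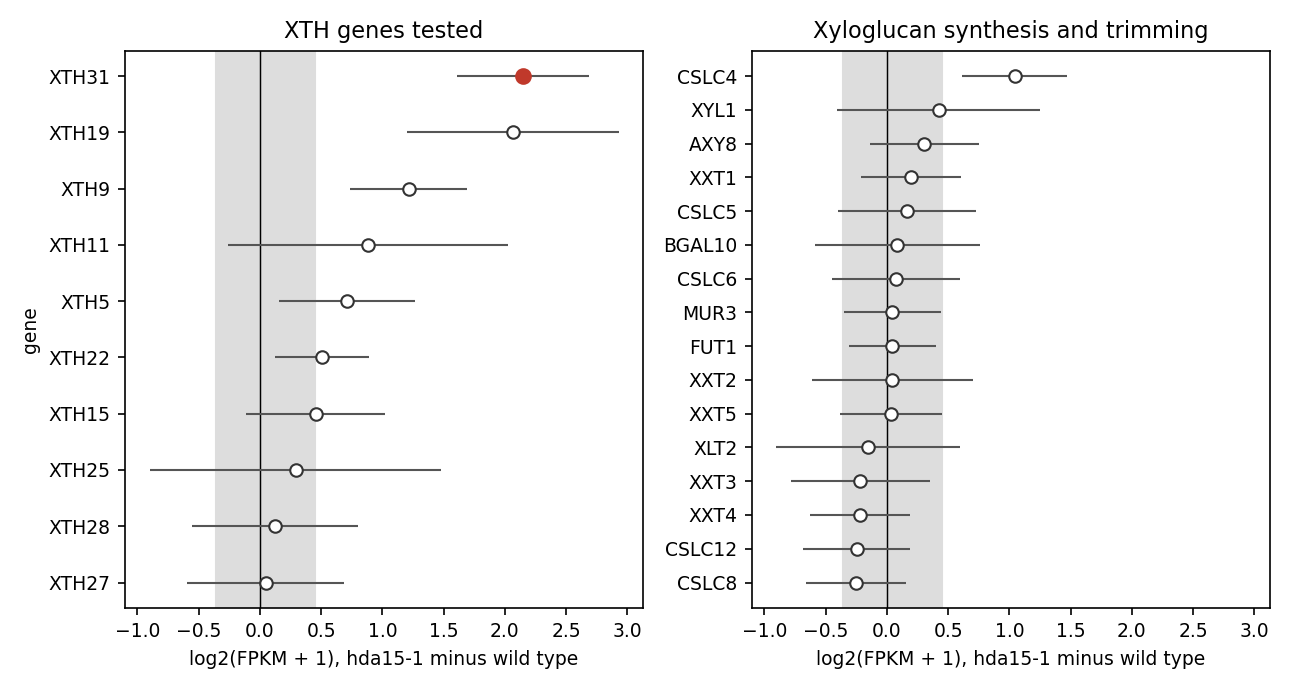
Difference between hda15-1 and wild type in log2(FPKM + 1) for the 10 XTH genes tested (left) and 16 tested genes of xyloglucan synthesis and trimming (right). Points are limma estimates with 95% intervals, the filled point passed the threshold, and the grey band spans the 5th to 95th percentile of all genes tested, from -0.36 to 0.45; XTH31, at 2.15, is the 1 filled point, and 7 of the XTH points lie right of the band.

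Below the minimum mean, XTH4, XTH16 and XTH30 were still seen in every library. XTH4 (AT2G06850), which acts in the xylem, stood at 0.914, 0.730 and 0.374 FPKM in hda15-1, against 0.169, 0.136 and 0.0677 FPKM in wild type. XTH16 (AT3G23730), another shade-responsive member, stood at 1.80, 0.911 and 0.780 FPKM in hda15-1, against 0.271, 0.507 and 0.386 FPKM in wild type. Both were higher in each hda15-1 library than in any wild-type library. XTH30 (AT1G32170), known from salt stress, overlapped, at 0.503, 0.582 and 0.664 FPKM in hda15-1, against 0.522, 0.630 and 1.03 FPKM in wild type. When every gene above 0 in at least 1 library was tested, 21626 in all, 22 XTH genes entered and XTH31 alone passed, with an adjusted p of 0.0453 in limma, beside 0.102% of those genes. The 12 added members had adjusted p-values of at least 0.363, the lowest being that of XTH4. Of the 22 members that entered, the hda15-1 libraries lay above all wild-type libraries in 7, where 5.83% of those 21626 genes did so. They lay below them in 0, where 3.86% did so.

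In order of level in hda15-1, XTH25, XTH11 and XTH15 came first, and then XTH19, XTH28, XTH22, XTH31, XTH27, XTH5 and XTH9. In wild type the order was XTH25, XTH11, XTH15, XTH28, XTH22, XTH27, XTH19, XTH5, XTH31 and XTH9. XTH19 was thus 4th of the 10 in hda15-1 and 7th in wild type, and XTH31 7th in hda15-1 and 9th in wild type. In hda15-1 the ranges overlapped between XTH19 and XTH28, and between each pair of neighbours from XTH22 down to XTH9. In wild type they overlapped between XTH15 and XTH28, between XTH22, XTH27 and XTH19 as neighbours, and between XTH5 and XTH31. Neighbours whose ranges overlapped are not told apart here.

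The differences were not of the same size in the libraries numbered 1 as in the others. The set numbered 1 holds 1 library per genotype, so its differences have no spread. What the numbers mark is not said in the labels. Between the 2 libraries numbered 1, the log2 difference was 1.84 for XTH31, 1.08 for XTH19, 1.49 for XTH9, 0.23 for XTH22 and 0.12 for XTH5. Among the 4 libraries numbered 2 and 3 it was 2.30 for XTH31, 2.56 for XTH19, 1.08 for XTH9, 0.64 for XTH22 and 1.00 for XTH5. In those 4 libraries XTH31 and XTH19 passed in limma, with adjusted p-values of 0.0136 and 9.58e-03, beside 0.488% of 14946 genes tested. XTH15, XTH28 and XTH27 differed in sign between the sets, at -0.22, -0.66 and 0.84 between the libraries numbered 1 and at 0.79, 0.52 and -0.35 among the others. EXPA2, an expansin gene among the 3 endosperm markers, was, like XTH19, highest in library 1 among the wild-type libraries, at 156, 164 and 247 FPKM in hda15-1, against 78.6, 17.2 and 19.9 FPKM in wild type. The other 2 endosperm markers overlapped between genotypes. MAN7 was also highest in library 1 among the wild-type libraries, at 15.9, 19.8 and 31.1 FPKM in hda15-1, against 20.5, 14.1 and 13.4 FPKM in wild type (log2 difference 0.42 ± 0.27, SE). EPR1 was instead highest in library 3 among the wild-type libraries. It stood at 11272, 8653 and 7286 FPKM in hda15-1, against 9641.5, 6644 and 10848 FPKM in wild type. Its means were 9071 FPKM in hda15-1 and 9045 FPKM in wild type. The part of endosperm RNA in the XTH differences was not tested.

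Some members that lie beside each other in the genome differed widely in level. Tandem arrays, taken as members with gaps under 20 kb, held 11 of the 33 genes in 4 arrays. On chromosome 5, XTH12, XTH13, XTH25 and XTH22 lie on the minus strand within 8360 bp, from 23300321 to 23308680 in TAIR10.1. XTH12 and XTH13 were listed at 0, while XTH25 averaged 913 FPKM in hda15-1 and 783 FPKM in wild type, and XTH22 averaged 10.05 FPKM in hda15-1 and 6.81 FPKM in wild type. On chromosome 4, XTH24, XTH18 and XTH19 lie on the minus strand within 11033 bp, from 14819192 to 14830224. XTH24 reached at most 0.335 FPKM, while XTH19 averaged 23.2 FPKM in hda15-1 and 5.43 FPKM in wild type. The pairs XTH1 with XTH2 and XTH23 with XTH14, both on chromosome 4, were listed at 0 throughout. Apart from XTH19, no tested member shared a run of more than 30 identical transcript bases with another member.

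**Figure D4:**
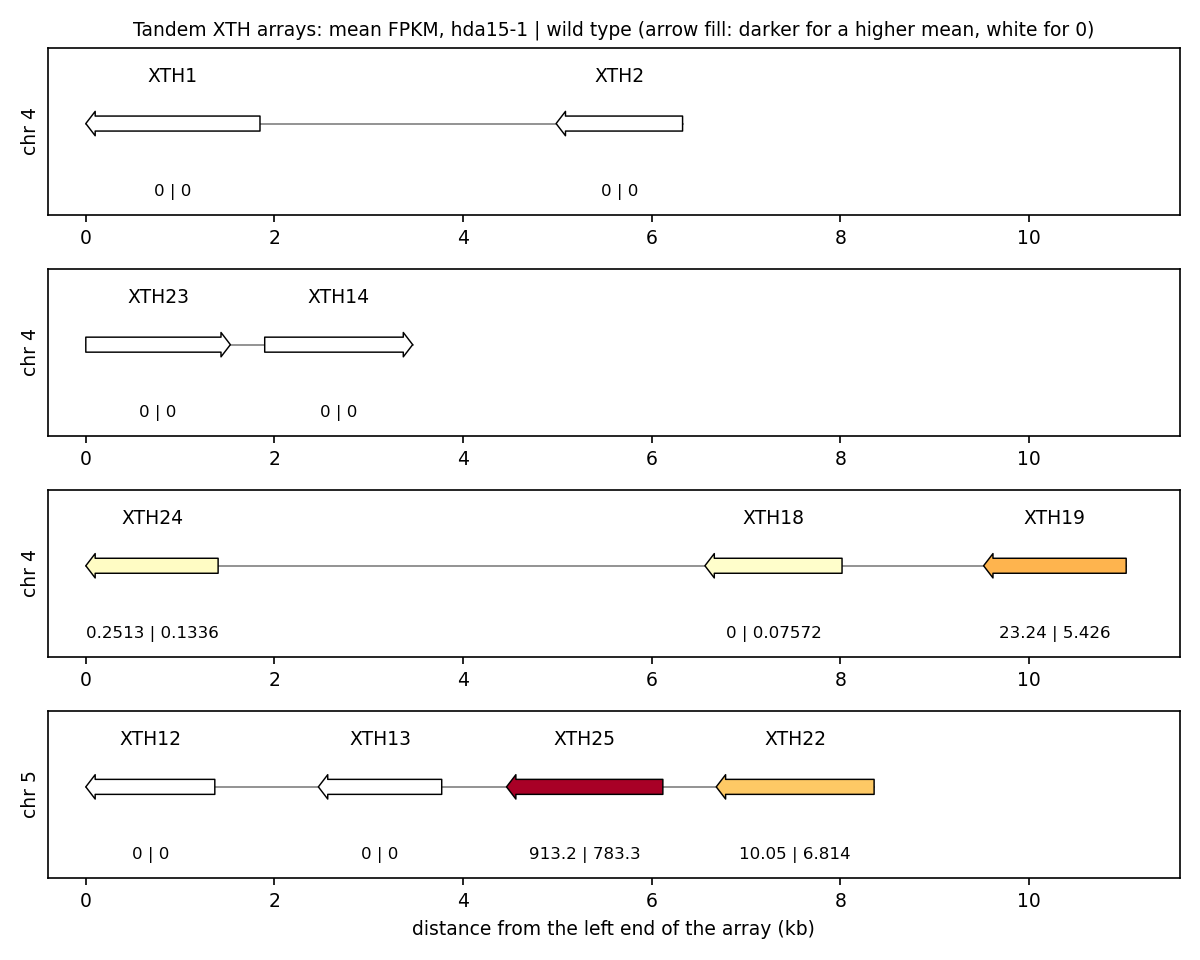
The 4 tandem arrays of XTH genes, drawn to scale by distance in kb from the left end of each, with arrows in the direction of transcription. The 2 numbers under each gene are its mean FPKM in hda15-1 and in wild type, and arrows are darker for a higher mean and white for 0; XTH25, at 913 FPKM in hda15-1 and 783 FPKM in wild type, lies between genes listed at 0 and XTH22, at 10.05 FPKM in hda15-1 and 6.81 FPKM in wild type.

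The start regions of the 3 tested members with the largest differences are shown, from 250 bases before to 50 after the annotated gene start, since PIF1 and its relatives bind the E-box, CANNTG, and above all its G-box form CACGTG and PBE-box form CACATG. The sequences are those of TAIR10.1 with RefSeq gene starts, 5′ to 3′ on the gene's strand. Both strands were searched, and capitals mark each E-box.
XTH31 (chr3:16448795-16449094, minus strand): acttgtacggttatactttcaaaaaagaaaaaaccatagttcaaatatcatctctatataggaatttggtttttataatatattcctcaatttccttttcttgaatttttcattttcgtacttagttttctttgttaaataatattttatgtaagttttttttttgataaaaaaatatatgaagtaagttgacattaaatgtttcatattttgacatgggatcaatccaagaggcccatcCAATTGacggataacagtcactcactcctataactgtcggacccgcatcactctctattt
XTH19 (chr4:14830175-14830474, minus strand): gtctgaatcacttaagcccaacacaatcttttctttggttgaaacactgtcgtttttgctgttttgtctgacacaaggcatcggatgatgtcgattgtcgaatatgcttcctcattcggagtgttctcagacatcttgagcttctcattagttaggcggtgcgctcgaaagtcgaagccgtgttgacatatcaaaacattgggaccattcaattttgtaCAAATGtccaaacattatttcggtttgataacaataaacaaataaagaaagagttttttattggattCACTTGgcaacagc
XTH9 (chr4:1415367-1415666, plus strand): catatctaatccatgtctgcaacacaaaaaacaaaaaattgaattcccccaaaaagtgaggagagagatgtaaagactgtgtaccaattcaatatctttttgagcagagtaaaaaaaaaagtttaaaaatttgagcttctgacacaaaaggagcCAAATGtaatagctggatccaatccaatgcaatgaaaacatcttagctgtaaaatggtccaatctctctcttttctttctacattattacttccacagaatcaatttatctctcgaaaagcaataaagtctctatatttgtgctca
XTH31 and XTH9 each held 1 E-box and XTH19 held 2, none of them a G-box or a PBE-box. Over the family, 24 of 33 windows held an E-box, as did 61.7% of the windows of all 27443 protein-coding genes. A PBE-box stood in 5 of 33 (XTH17, XTH18, XTH25, XTH26 and XTH33), against 12.9% of all windows, and a G-box in 0 of 33, against 7.68%. Of these 5, XTH25 alone was expressed at a level that could be tested. These are matches of letters within short windows and say nothing of binding elsewhere.

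Outside the XTH family, none of the genes listed as building or trimming xyloglucan passed the test. Of 17 such genes, 16 were tested, and limma called 0 higher and 0 lower, beside 0.199% and 0.0199% of all genes tested. At an unadjusted p under 0.05, 1 was higher and 0 were lower, beside 3.08% and 1.20%. The hda15-1 libraries lay above all wild-type libraries in 1 of the 16, beside 5.78%, and below them in 2, beside 3.43%. CSLC4 entered the test only through its hda15-1 values and XXT3 only through its wild-type values, so these counts cover the genes that passed the filter. The median log2 difference of the 16 was 0.04, against 0.02 for all genes tested. CSLC4, which makes the glucan backbone, was the 1 above wild type in this way, at 2.11, 1.76 and 2.03 FPKM in hda15-1, against 0.571, 0.423 and 0.336 FPKM in wild type (log2 difference 1.04 ± 0.19, SE; adjusted p = 0.137, limma). Its relatives CSLC8 and CSLC12 lay the other way without overlap, CSLC12 by a very narrow margin. The remaining CSLC genes of the list overlapped between the genotypes. CSLC8 stood at 0.979, 1.07 and 1.10 FPKM in hda15-1, against 1.55, 1.49 and 1.29 FPKM in wild type, and CSLC12 at 0.861, 1.32 and 0.922 FPKM in hda15-1, against 1.33, 1.38 and 1.504 FPKM in wild type. AXY8, a fucosidase that trims xyloglucan, stood at 5.25, 3.72 and 5.47 FPKM in hda15-1, against 4.17, 3.57 and 3.28 FPKM in wild type. Each of these 3 had an adjusted p of 1.000 in limma. AXY4, which acetylates xyloglucan, was listed at 0 in all libraries.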

How the data were processed

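RNA was sequenced from imbibed seeds, 3 libraries per genotype. Each library has its own table of FPKM values as deposited, per the file headers. Bowtie 0.12.2, Cufflinks and Cuffdiff, with the build TAIR10, are listed in the submitters' processing notes. For settings, annotation version, read length and strand use, nothing is given in the sources used here. FPKM hold no read counts, so no count test was run.

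Members were matched by locus. Positions, coding sequences and start windows came from the TAIR10.1 genome and RefSeq annotation, read with Python 3.11.15 and Biopython 1.88, and the deposited tables hold no coordinates. Differences are hda15-1 minus wild type on log2(FPKM + 1), a scale that understates changes of low genes, and were fitted with limma 3.58.1 in R 4.3.3, with the empirical Bayes trend and genotype as the only term. Tests were two-sided over genes averaging 1 FPKM or more, with p-values adjusted over all of them. The fit was tested on simulated data.

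Whether the libraries of a genotype were separate seed lots is not said in the labels, so p-values reflect only spread between these samples, possibly technical. An exact permutation test of 3 against 3 cannot go below p = 0.1. All 33 members are named, with each library's value where a genotype mean reached 0.3 FPKM, and of 17 xyloglucan genes the 4 with the smallest p. The 33 members are a whole family, so no member was picked by its values, but the family and the lists were chosen with earlier results of these data known. Alternatives covered pseudocount, filter, scaling, variance model, replicate block and libraries left out.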

Additional observations from a re-analysis of the deposited data

How the results depend on the processing

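The number of XTH genes higher in hda15-1 was 1 in the main result, 0 to 1 when 1 library was left out (1 without wild type 1, where XTH19 passed and XTH31 did not), 2 in the libraries numbered 2 and 3, and 0 where genes had to average 5 FPKM or more, since XTH31 was not tested. The median log2 difference of the tested members was 0.61, and was 0.14 with no filter, where 22 members were tested, and 0.90 in the libraries numbered 2 and 3. No XTH gene was lower, and no gene of the xyloglucan synthesis and trimming list passed, in any alternative run. At an unadjusted p under 0.05 in limma, 5 tested members were higher in the main result. That count was 4 with equal sums, 3 to 7 with 1 library left out and 8 in the libraries numbered 2 and 3. The sign turned for members that did not pass. XTH25 was between -0.25 (without wild type 1) and 0.70 with 1 library left out. XTH27 was at -0.022 with the upper quartile and -0.033 with the sum equalised, between -0.16 (without hda15-1 1) and 0.29 with 1 library left out, and at -0.35 in the libraries numbered 2 and 3. XTH28 was between -0.077 (without wild type 2) and 0.46 with 1 library left out. The cause was not tested. Over all genes, 30 were higher and 3 lower. The number higher was 22 with a pseudocount of 0.1 or with no filter, 18 with equal sums, 13 among genes averaging 5 FPKM or more, 8 to 31 with 1 library left out and 73 in the libraries numbered 2 and 3, where 12 were lower. Deviations of same-numbered libraries from their genotype means correlated at r = -0.079, -0.114 and -0.162, and those of the other pairs at -0.076 to 0.214. The labels do not say what the numbers mark, and these values cannot show whether the numbers pair the libraries. With a replicate block, 13 genes were higher and 3 lower, and among XTH genes 1 was higher and 0 lower. In that run the XTH median was 0.61, and 0 genes of the synthesis and trimming list passed in either direction. HDA15 was at -3.41 there, and XTH31 kept an adjusted p of 0.0363 in limma. Depth is unknown, and values under about 0.3 FPKM rest on few reads.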
